A study of Rattus norvegicus with 32 samples.

Results

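The growth hormone, prolactin and insulin-like growth factor (IGF) axis of the liver was followed here through 10 genes: the receptors Ghr and Prlr, the signal transducers Jak2 and Stat5b, the feedback inhibitors Socs2 and Cish, and the secreted products Igf1, Igfals, Igfbp3 and Igfbp2. They were chosen by symbol for their known roles, at a time when earlier results of these data were known. All 10 of them had a row among the 17327 genes of the count table and passed the filter that left 11002 genes for testing. The study removed corticosteroid-binding globulin (CBG), the plasma carrier of corticosterone, from rats by CRISPR/Cas9 ablation of its gene Serpina6. Liver RNA was sequenced in 8 groups of 4 libraries, taken as 1 animal each, all Charles River Sprague Dawley rats under basal conditions: 60-day KO males, 60-day WT males, 60-day KO females, 60-day WT females, 30-day KO males, 30-day WT males, 30-day KO females and 30-day WT females, where KO is Cbg-/- and WT is Cbg+/+. The ages are those of a juvenile and of a young adult rat, and the labels do not name the targeted exon or the founder line.

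Growth hormone from the pituitary binds Ghr on hepatocytes and activates the kinase Jak2, which phosphorylates Stat5b, and Stat5b then enters the nucleus and drives Igf1, Igfals, Socs2 and Cish. Socs2 and Cish bind the activated receptors and damp the signal, while Igf1 leaves the liver in a ternary complex with Igfbp3 and the acid-labile subunit encoded by Igfals. In adult rats growth hormone reaches the liver in separated pulses in males and more continuously in females, and this difference is known to set much of the sex-dependent transcription of the liver. Prlr, the prolactin receptor, is known as a female-predominant gene of rodent liver, and Igfbp2 is an IGF carrier that growth hormone is known to lower.

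Libraries held between 12951969 and 21954929 reads on genes, with 16806943 or more in each 30-day library and 17133332 or fewer in each 60-day library, so depth moved with age and its part in the age results was not tested. Levels are given as CPM, counts scaled to library size with the trimmed mean of M-values, and differences as log2 fold changes with their standard errors from edgeR's quasi-likelihood test. A gene was called when its p, adjusted over the 11002 genes by the Benjamini-Hochberg method, was below 0.05. Serpina6 was lower in KO livers in all 4 comparisons, from 7.75 times lower in 60-day males to 16.0 times in 30-day males. Hepatocyte markers were all present, and the 10 of them summed to between 205180 and 295780 CPM per library. One library stood apart: replicate 1 of the 60-day KO females held 2012 CPM of photoreceptor transcripts, where its group mates held 3.48 to 9.22 CPM. Where this library changed a call reported below for a member or a named gene, the result is given with and without it. Calls of named genes in comparisons not reported below are left out. In bulk tissue, fewer cells of a type and less RNA per cell cannot be told apart.

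STAT5 proteins bind DNA at the palindrome TTCNNNGAA, and its presence near the member genes was read from RefSeq promoter sequences of the rat assembly GRCr8. Windows were the 250 bases before each annotated start, and 9 of the 10 members had at least 1, for 10 windows in all. The palindrome, which reads the same on both strands, was found in 2 of these windows, both printed here with each match in capitals. The Cish window lies on the plus strand at chr8:116850719-116850968, and its matches begin at positions -241, -230, -136 and -119 from the start. The Prlr window is the second of 2 annotated for that gene, on the plus strand at chr2:60909409-60909658, and its match begins at -176.
Cish: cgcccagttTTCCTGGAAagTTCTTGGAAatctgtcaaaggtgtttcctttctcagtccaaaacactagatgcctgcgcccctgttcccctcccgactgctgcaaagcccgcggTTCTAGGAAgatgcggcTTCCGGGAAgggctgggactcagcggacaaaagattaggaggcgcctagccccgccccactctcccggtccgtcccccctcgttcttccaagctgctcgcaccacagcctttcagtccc
Prlr: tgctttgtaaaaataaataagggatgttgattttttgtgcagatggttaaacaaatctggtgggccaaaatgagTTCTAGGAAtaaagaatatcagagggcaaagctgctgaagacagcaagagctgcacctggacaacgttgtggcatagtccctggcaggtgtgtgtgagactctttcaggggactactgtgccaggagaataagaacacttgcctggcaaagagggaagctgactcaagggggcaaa
At least 1 match was present in 2566 of all 33469 windows of this length (7.67%), and 4 matches, the number in Cish, in 2 of them (0.00598%). A match describes the letters of the window and does not show that a factor binds there. The windows of Ghr, Jak2, Stat5b, Igf1, Igfals, Igfbp3 and Igfbp2 held no match within these bases.

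The members differed widely in how steady they were among animals of 1 group. Jak2, Stat5b, Ghr, Igf1, Igfals and Igfbp3 had median coefficients of variation within groups between 7.72% and 12.2%. Prlr, Socs2, Igfbp2 and Cish lay between 33.5% and 56.7%, with Cish the most variable. Across the 8 group means, the highest exceeded the lowest by 1.31 times for Jak2 and 1.38 times for Stat5b, by 9.86 times for Cish, 28.4 times for Igfbp2 and 36.6 times for Prlr. When the 8 groups were put in order of their means, most neighbours in that order overlapped in their libraries. Prlr had 2 of its 7 neighbouring pairs without overlap, Ghr, Igfals and Igfbp2 had 1 each, and the other 6 members had none.

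**Figure D1:**
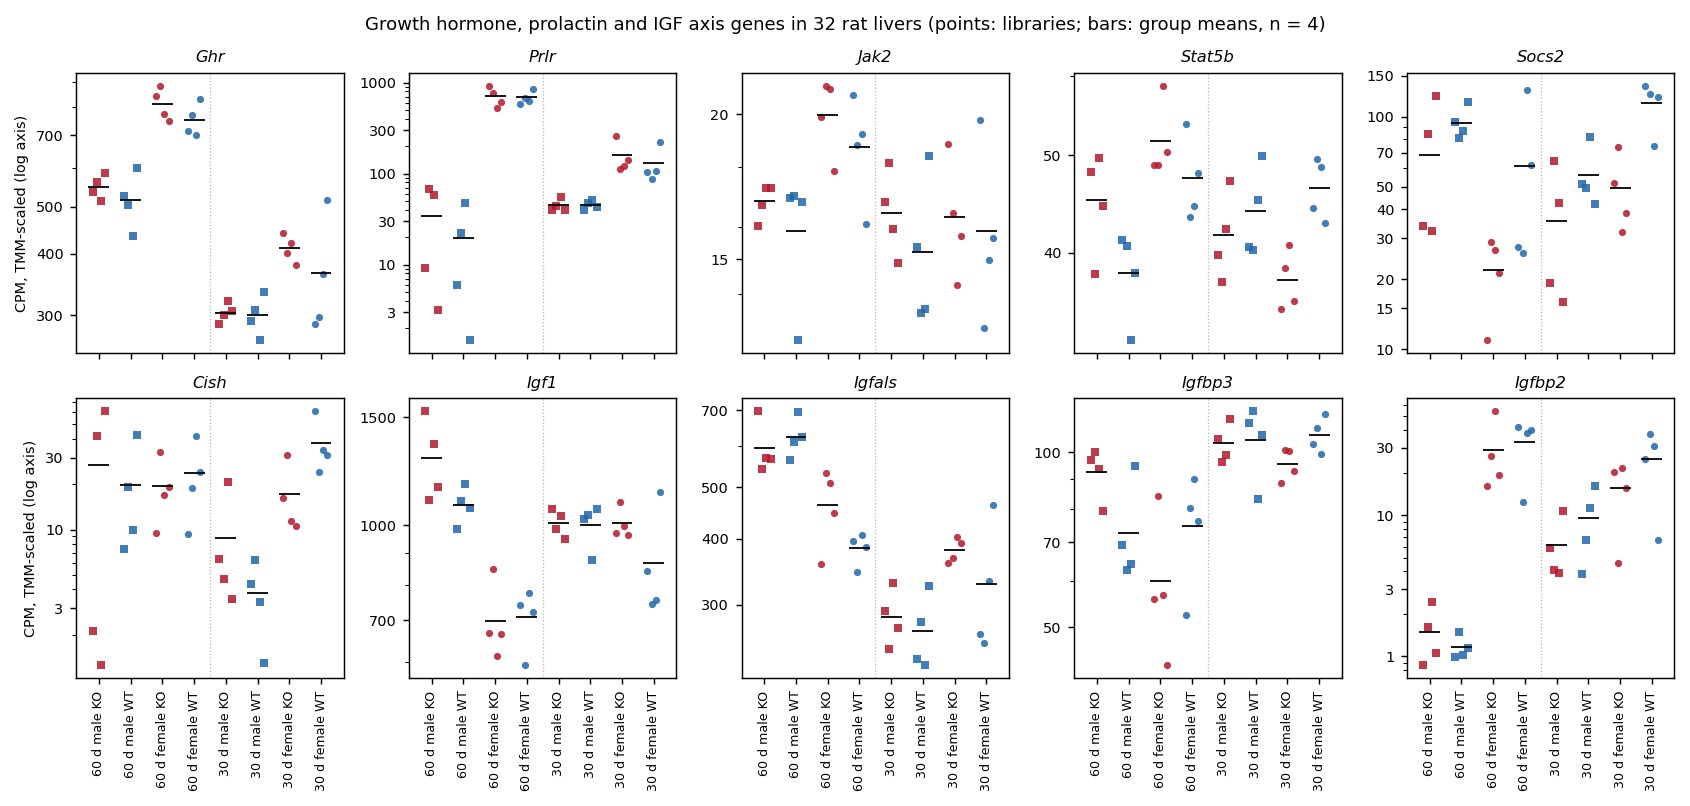
Level of each of the 10 members in CPM (vertical log axis, 1 panel per gene with its own range) in the 32 livers, where each point is a library and each bar the mean of 4 animals, red for KO and blue for WT, squares for males and circles for females. Prlr and Igfbp2 separate the sexes at 60 days, Ghr is higher in the 60-day groups of either sex, and Cish and Socs2 scatter widely within groups.

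The largest fitted fold changes of the axis were between the sexes at 60 days. In 60-day KO livers 3 members were higher and 3 lower in males than in females, where 18.5% of all tested genes were called (9.63% higher and 8.89% lower). In 60-day WT livers 2 were higher and 4 lower in males, beside 26.4% of all genes (13.7% higher and 12.7% lower). The libraries of males and females did not overlap for 7 of the 10 members in KO livers and for 6 in WT livers, against 18.1% and 22.7% of all genes. The median log2 fold change of the 10 members, male over female, was 0.08 in KO and -0.26 in WT livers, and that of all tested genes was -0.02 and -0.0002.

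Prlr, the receptor through which prolactin acts, had the widest sex difference. Its level was 9.08, 68.0, 57.5 and 3.19 CPM in 60-day KO males, against 921, 777, 530 and 614 CPM in 60-day KO females. In 60-day WT males it was 5.90, 22.4, 47.9 and 1.48 CPM, against 590, 676, 630 and 860 CPM in 60-day WT females. Females were high in every library, and males spread over more than an order of magnitude in both genotypes without reaching any female. Prlr was lower in males by a log2 fold change of -4.36 ± 0.73 in KO livers, or 20.5 times (adjusted p = 8.49e-05), and of -5.13 ± 0.76 in WT livers, or 35.1 times (adjusted p = 1.18e-05). Both calls held without each library in turn, and without replicate 3 of the 60-day WT males the WT value was -6.08 (adjusted p = 5.65e-06).

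Ghr, the growth hormone receptor, was also lower in males. It stood at 536, 561, 513 and 584 CPM in 60-day KO males, against 840, 882, 775 and 747 CPM in 60-day KO females. WT livers gave 526, 505, 436 and 599.5 CPM in 60-day males, against 714, 769, 699.5 and 829 CPM in 60-day females. All 8 males of this age lay under all 8 females. The log2 fold change, male over female, was -0.56 ± 0.12 in KO livers (adjusted p = 0.000956) and -0.54 ± 0.12 in WT livers (adjusted p = 0.000985). Ghr and Prlr counts combine all transcripts of each gene, so the long and short receptor forms were not told apart.

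The transducers moved little. Stat5b, the main STAT of growth hormone action in liver, had 41.1, 40.6, 32.7 and 38.2 CPM in 60-day WT males, against 53.7, 43.4, 44.5 and 48.0 CPM in 60-day WT females. It was lower in WT males by -0.31 ± 0.10 (adjusted p = 0.0145), with no overlap, but the call was lost without replicate 1 of the WT females (adjusted p = 0.0668) or replicate 3 of the WT males (adjusted p = 0.0717). In KO livers the difference was -0.20 ± 0.10 (adjusted p = 0.164) and not called, with 48.1, 38.1, 49.7 and 44.5 CPM in males and 48.9, 48.9, 58.6 and 50.3 CPM in females. Jak2, the receptor-associated kinase, was not called in either genotype, at -0.25 ± 0.12 in KO (95% interval -0.49 to -0.01) and -0.24 ± 0.12 in WT livers (-0.48 to 0.00).

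Of the feedback inhibitors, Socs2 was called between the sexes in KO livers, and Cish in neither genotype. Socs2, the suppressor that limits growth hormone signalling, had 34.0, 84.1, 32.2 and 123 CPM in 60-day KO males, against 10.9, 29.02, 26.7 and 21.3 CPM in 60-day KO females. The lowest KO male was above the highest KO female. Socs2 was higher in KO males by 1.63 ± 0.51, or 3.09 times (adjusted p = 0.0266). That call was lost in 4 of 8 fits with 1 library left out: without replicate 1 or 4 of the KO females (adjusted p = 0.0946 and 0.056), and without replicate 2 or 4 of the KO males (adjusted p = 0.0635 and 0.14). It was also lost with limma-voom (1.46, adjusted p = 0.065) and in a fit to the 60-day libraries alone (1.63, adjusted p = 0.079). In WT livers of this age Socs2 had 95.1, 80.8, 86.6 and 116 CPM in males and 27.6, 25.8, 131 and 62.3 CPM in females, a difference of 0.61 ± 0.49 that was not called, with WT female replicate 3 above every male. The difference between the genotypes in the sex effect, 1.01 ± 0.71, was not called either (adjusted p = 0.672). Cish, the other inhibitor, was at 0.43 ± 0.78 in KO livers and -0.28 ± 0.78 in WT livers, neither of them called, and the groups overlapped.

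Igf1, the growth factor itself, was higher in males of both genotypes. It had 1534, 1101, 1354 and 1152 CPM in 60-day KO males, against 669, 849, 612 and 665 CPM in 60-day KO females. In 60-day WT males the values were 987, 1094, 1167 and 1068 CPM, against 742, 592, 775 and 723 CPM in 60-day WT females. Every male exceeded every female. The log2 fold change was 0.88 ± 0.12 in KO livers, or 1.84 times (adjusted p = 2.04e-06), and 0.61 ± 0.12 in WT livers, or 1.52 times (adjusted p = 0.000229). The difference between these effects was 0.27 ± 0.17 and was not called (adjusted p = 0.609).

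The IGF carriers went separate ways. Igfals, which encodes the acid-labile subunit, had 565, 610, 696 and 623 CPM in 60-day WT males, against 397, 345, 407 and 386 CPM in 60-day WT females, and was higher in WT males by 0.70 ± 0.15 (adjusted p = 0.000479). In 60-day KO livers it had 698, 542, 569 and 565 CPM in males and 358, 533, 510 and 448 CPM in females, at 0.36 ± 0.14 (adjusted p = 0.0853), which was not called although the groups did not overlap. In a fit to the 60-day libraries alone Igfals was called in KO livers (0.37, adjusted p = 0.043). Igfbp2, the carrier that growth hormone lowers, was found at 0.868, 1.63, 2.45 and 1.06 CPM in 60-day KO males, against 16.0, 26.4, 54.5 and 19.2 CPM in 60-day KO females. It was nearly as low in 60-day WT males, at 0.995, 1.49, 1.02 and 1.15 CPM, against 41.9, 12.4, 38.0 and 40.1 CPM in 60-day WT females. Igfbp2 was thus lower in every male than in any female, by -4.25 ± 0.67 in KO livers, or 19.0 times (adjusted p = 3.84e-05), and by -4.81 ± 0.69 in WT livers, or 28.1 times (adjusted p = 6.58e-06).

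Igfbp3, the principal IGF carrier of plasma, was called between the sexes in KO livers at 60 days and not in WT livers. It had 97.2, 100.3, 93.8 and 79.4 CPM in 60-day KO males, against 56.0, 84.3, 56.9 and 43.1 CPM in 60-day KO females, a log2 fold change of 0.63 ± 0.16 (adjusted p = 0.00496). One KO female lay above the lowest KO male, and the other 3 lay under all of them. In 60-day WT livers Igfbp3 had 69.2, 62.7, 64.3 and 94.7 CPM in males and 52.5, 80.1, 89.99 and 76.2 CPM in females, at -0.04 ± 0.16 (adjusted p = 0.889). The test of the difference between these 2 sex effects gave 0.67 ± 0.22, with an unadjusted p of 0.00593 that did not pass (adjusted p = 0.253). None of the 10 members was called for sex by genotype at 60 days, where 0.136% of all genes were, or at 30 days, where 0% were. At an unadjusted p below 0.05, 3 of the 40 sex by genotype and age by genotype tests of members passed. Of the 11002 genes 1163 passed so for sex by genotype at 60 days and 606 at 30 days. For age by genotype 1935 passed in females and 588 in males.

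**Figure D2:**
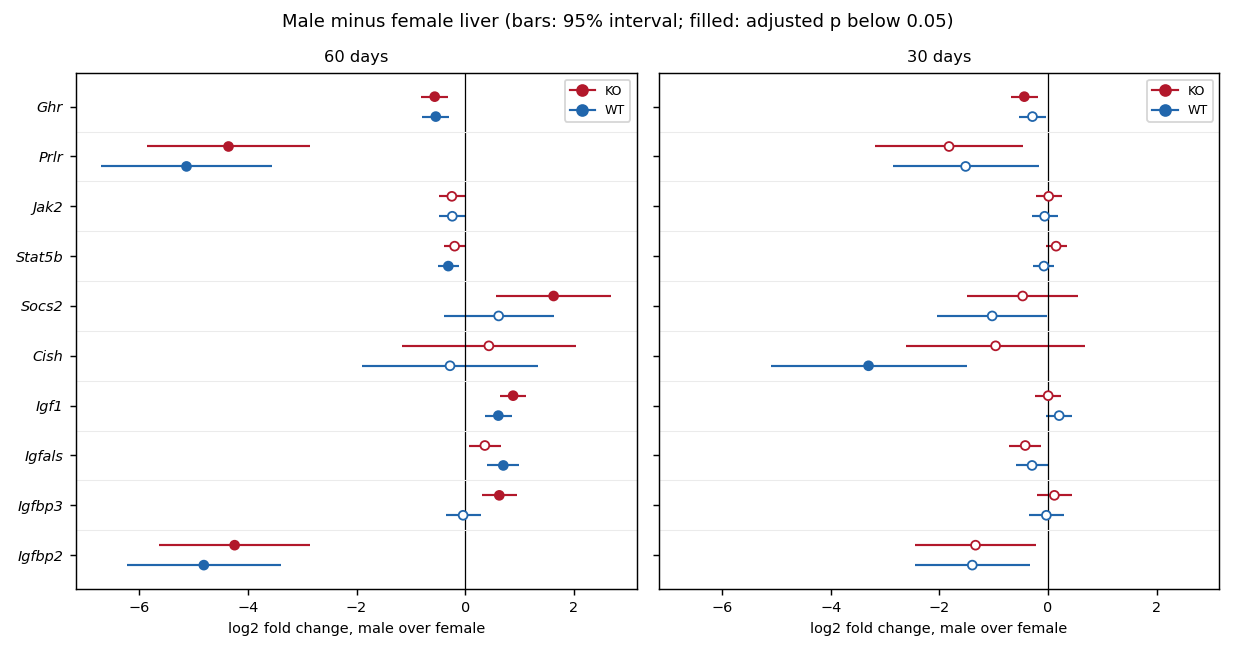
Log2 fold change of male over female liver (horizontal axis) for the 10 members at 60 days (left panel) and 30 days (right panel), red for KO and blue for WT, with bars for 95% intervals and filled points for adjusted p below 0.05. At 60 days Prlr and Igfbp2 lie between -4.25 and -5.13 in both genotypes, and at 30 days only Ghr in KO and Cish in WT livers are filled.

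At 30 days the sexes were closer. In each genotype 1 member was called and was lower in males, beside 2.24% of all genes in KO livers (1.38% lower) and 2.07% in WT livers (0.991% lower). In 30-day KO livers that was Ghr, with 287, 301, 320 and 306 CPM in males, against 440, 403, 421 and 379 CPM in females (-0.44 ± 0.12, adjusted p = 0.05 after rounding, just under the threshold). All 4 KO males lay under all 4 KO females, but the adjusted p was between 0.0646 and 0.149 in the 8 fits that left out 1 library. The call was thus lost in each of them, while the log2 fold change stayed between -0.474 and -0.409. In 30-day WT livers the called member was Cish, with 4.35, 6.24, 3.30 and 1.31 CPM in males, against 60.9, 24.2, 33.6 and 31.1 CPM in females (-3.30 ± 0.87, or 9.88 times lower, adjusted p = 0.0459). Here too the 8 males and females did not overlap, and the call was lost in all 8 fits that left out 1 library, with adjusted p between 0.0505 and 0.128. In 30-day KO livers Cish had 6.39, 4.66, 20.8 and 3.47 CPM in males and 16.2, 31.2, 11.4 and 10.6 CPM in females, at -0.97 ± 0.80, which was not called.

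Prlr already separated the sexes at 30 days without being called. It had 40.03, 43.7, 55.3 and 40.1 CPM in 30-day KO males, against 258, 112, 122 and 142 CPM in 30-day KO females. In 30-day WT livers it had 40.3, 47.3, 50.7 and 43.4 CPM in males, against 103, 87.8, 107 and 222 CPM in females. No male reached a female in either genotype, and the log2 fold changes were -1.82 ± 0.66 in KO livers (adjusted p = 0.175) and -1.52 ± 0.65 in WT livers (adjusted p = 0.309). In a fit to the 30-day libraries alone, whose spread is estimated without the 60-day males, both were called (adjusted p = 0.00562 in KO and 0.0151 in WT livers), and the same fit lost the Ghr call in KO livers (-0.44, adjusted p = 0.0968). Libraries of males and females did not overlap for 3 members in KO livers (Ghr, Prlr and Igfals) and for 2 in WT livers (Prlr and Cish), against 12.7% and 9.18% of all genes.

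Replicate 4 of the 30-day WT females was the highest of its group for Ghr, Prlr, Igf1 and Igfals and the lowest for Igfbp2. Its levels were 514 CPM of Ghr, against 288, 297 and 363 CPM in the other 3, and 222 CPM of Prlr, 1132 CPM of Igf1, 462 CPM of Igfals and 6.72 CPM of Igfbp2. Among the 30-day WT females it is the only one whose title carries a 2 after the hyphen, as the titles of all 4 KO females of that age do. The labels do not say what that number stands for. Among the 30-day KO males only replicate 4 carries a 2, so sex and that number largely coincide in KO livers. Genotype and that number largely coincide among the 30-day females too, so they cannot be well told apart in the KO against WT values of that group. In a fit to the 30-day libraries with that number as a covariate, Ghr between the sexes in KO livers was at -0.26 and not called (adjusted p = 0.534). No member was called between the sexes in KO livers in that fit, Prlr included. In WT livers Prlr was at -1.54 and called (adjusted p = 0.0182).

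Between 30 and 60 days Ghr was the member that changed in every sex and genotype. Its log2 fold change, 60 over 30 days, was 0.98 ± 0.12 in KO females (adjusted p = 6.09e-07), 1.04 ± 0.12 in WT females (8.34e-08), 0.85 ± 0.12 in KO males (3.02e-06) and 0.78 ± 0.12 in WT males (1.02e-05). The groups never overlapped: 60-day WT females had 714, 769, 699.5 and 829 CPM, against 288, 297, 363 and 514 CPM in 30-day WT females. In all, 3 members rose and 2 fell in KO females, where 22.7% of all genes were called (10.6% higher and 12.1% lower), and 2 rose and 1 fell in WT females, beside 33.1% of genes (16% higher and 17.1% lower). In KO males 3 rose and 1 fell (28.4% of genes, 14% higher and 14.5% lower), and in WT males 3 rose and 2 fell (31.5%, with 15.7% higher and 15.8% lower). Members whose ages did not overlap numbered 6 in KO females, 3 in WT females, 4 in KO males and 4 in WT males, against 23.6%, 29.4%, 31.4% and 29.1% of all genes. The median log2 fold change of the members lay between 0.08 in WT males and 0.29 in KO females, and that of all genes between -0.01 and 0.01.

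Prlr rose with age in females. It averaged 711 ± 174 CPM in 60-day KO females and 158 ± 67.4 CPM in 30-day KO females (SD, n = 4 each), and rose by 2.16 ± 0.66 on the log2 scale (adjusted p = 0.0182). That call was narrowly lost without replicate 2, 3 or 4 of the 30-day KO females (adjusted p = 0.0579, 0.0514 and 0.0509). It was also lost with limma on the deposited log2 values (2.06, adjusted p = 0.0529). In WT females Prlr averaged 689 ± 120 CPM at 60 days and 130 ± 61.9 CPM at 30 days, and rose by 2.40 ± 0.66 (adjusted p = 0.00662). In males it was not called, at -0.37 ± 0.65 in KO and -1.21 ± 0.67 in WT males, although without replicate 3 of the 60-day WT males the WT value was -2.16 and called (adjusted p = 0.0254). With all libraries the fall in WT males was called by limma-voom (-2.05, adjusted p = 0.0398) and by limma on the deposited log2 values (-2.35, adjusted p = 0.0237). The spread of Prlr in males grew with age: the coefficient of variation was 96.0% in 60-day KO males and 108% in 60-day WT males, against 16.1% in 30-day KO males and 10.0% in 30-day WT males.

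Among the secreted products Igfals rose with age in males, averaging 593 ± 70.7 CPM in 60-day KO males and 285 ± 35.3 CPM in 30-day KO males, a log2 fold change of 1.06 ± 0.15 (adjusted p = 2.01e-06). WT males gave 623 ± 54.6 CPM at 60 days and 268 ± 44.0 CPM at 30 days, or 1.22 ± 0.15 (adjusted p = 1.83e-07). In females Igfals was at 0.28 ± 0.14 in KO and 0.23 ± 0.14 in WT livers and was not called, although without replicate 4 of the 30-day WT females the WT value was 0.44 and called (adjusted p = 0.0107). Igf1 fell in KO females, at -0.53 ± 0.12, with 669, 849, 612 and 665 CPM at 60 days, against 972, 1093, 999 and 963 CPM at 30 days (adjusted p = 0.00137). Every 60-day KO female lay under every 30-day one. WT females were at -0.29 ± 0.12 (adjusted p = 0.0551), just above the threshold, and this was called without replicate 2 or 3 of the 30-day or replicate 3 of the 60-day WT females (adjusted p = 0.0301, 0.0322 and 0.0452).

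In KO males Igf1 rose by 0.35 ± 0.12, or 1.27 times (adjusted p = 0.0261). The call was lost without replicate 2 or 4 of the 30-day KO males (adjusted p = 0.0575 and 0.0694) and without replicate 1 or 3 of the 60-day KO males (adjusted p = 0.133 and 0.0617). In WT males Igf1 was at 0.11 ± 0.12 and not called. Igfbp2 fell in males, to 0.868, 1.63, 2.45 and 1.06 CPM in 60-day KO males, against 5.90, 4.10, 3.90 and 10.7 CPM in 30-day KO males. The log2 fold change was -2 ± 0.72 (adjusted p = 0.038), and it was called in 3 of 8 fits that left out 1 library, being lost without replicate 1 or 4 of the 30-day KO males (adjusted p = 0.0581 and 0.132) and without replicate 1, 2 or 4 of the 60-day KO males (adjusted p = 0.0981, 0.0742 and 0.09). In WT males it fell by 3.02 ± 0.71, or 8.09 times (adjusted p = 0.00203), from libraries that did not overlap, and kept the call in all 8 such fits. Females were at 0.91 ± 0.50 in KO and 0.40 ± 0.49 in WT livers, not called.

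Igfbp3 fell with age in 3 of the 4 comparisons, with log2 fold changes of -0.67 ± 0.16 in KO females (adjusted p = 0.00226), -0.52 ± 0.16 in WT females (adjusted p = 0.0111) and -0.53 ± 0.16 in WT males (adjusted p = 0.0105). The WT female call was lost without replicate 1 of the 60-day WT females (adjusted p = 0.0581). KO males were at -0.16 ± 0.16, with 97.2, 100.3, 93.8 and 79.4 CPM at 60 days and 106, 96.2, 99.0 and 114 CPM at 30 days, and were not called. In liver Igfbp3 is made largely by non-parenchymal cells, and markers of other cell types moved with age as well. Of 9 tested markers of stellate cells and fibroblasts, 3 fell in KO females, 8 in WT females, 4 in KO males and 6 in WT males, and none rose. The summed level of all 10 listed markers of this type, tested or not, was 476 to 510 CPM in 60-day KO females and 905 to 1048 CPM in 30-day KO females. It was 311 to 466 CPM in 60-day WT females and 1113 to 1494 CPM in 30-day WT females, and 358 to 588 CPM in 60-day WT males and 926 to 1235 CPM in 30-day WT males. In KO males it was 531 to 672 CPM at 60 days and 1025 to 1514 CPM at 30 days. Markers of sinusoidal endothelium fell in 1 of 8 in KO females, 3 in WT females, 1 in KO males and 4 in WT males. Kupffer cell and macrophage markers did not fall as a set. Of 9 tested, 4 rose and 1 fell in WT females, and 0 rose and 1 fell in KO females. In males 1 rose and 1 fell in KO livers, and 0 rose and 1 fell in WT livers. The part of any of these cell types in the Igfbp3 result was not tested.

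Stat5b rose with age in KO females, with 48.9, 48.9, 58.6 and 50.3 CPM at 60 days, against 35.2, 38.6, 40.7 and 35.8 CPM at 30 days (0.46 ± 0.09, adjusted p = 0.000574). It was at 0.03 ± 0.09 in WT females, and the difference between the genotypes, 0.43 ± 0.13, was not called (adjusted p = 0.075) but passed without replicate 1 of the 60-day WT females (0.49, adjusted p = 0.0308). No member was called for age by genotype in females, where 2.96% of all genes were, or in males, where 0.00909% were. Cish rose in WT males, with 7.43, 19.1, 9.98 and 42.3 CPM at 60 days, against 4.35, 6.24, 3.30 and 1.31 CPM at 30 days (2.36 ± 0.88, adjusted p = 0.0434). The ages did not overlap, and the call remained in only 2 of 8 fits that left out 1 library, with adjusted p between 0.0344 and 0.177. Without replicate 4 of the 60-day WT males the value was 1.69. Jak2 was not called in any age comparison, from 0.03 ± 0.12 in KO males to 0.29 ± 0.12 in KO females, but was called in KO females without replicate 1 of the 30-day group (0.37, adjusted p = 0.0324) and in WT females without replicate 1 of the 30-day group (0.36, adjusted p = 0.0209). Socs2 was not called in any of the 4, from -1.16 ± 0.51 in KO females to 0.94 ± 0.50 in KO males. In WT females it was at -0.89 ± 0.49, and was called without replicate 3 of the 60-day group (-1.57, adjusted p = 0.0187).

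**Figure D3:**
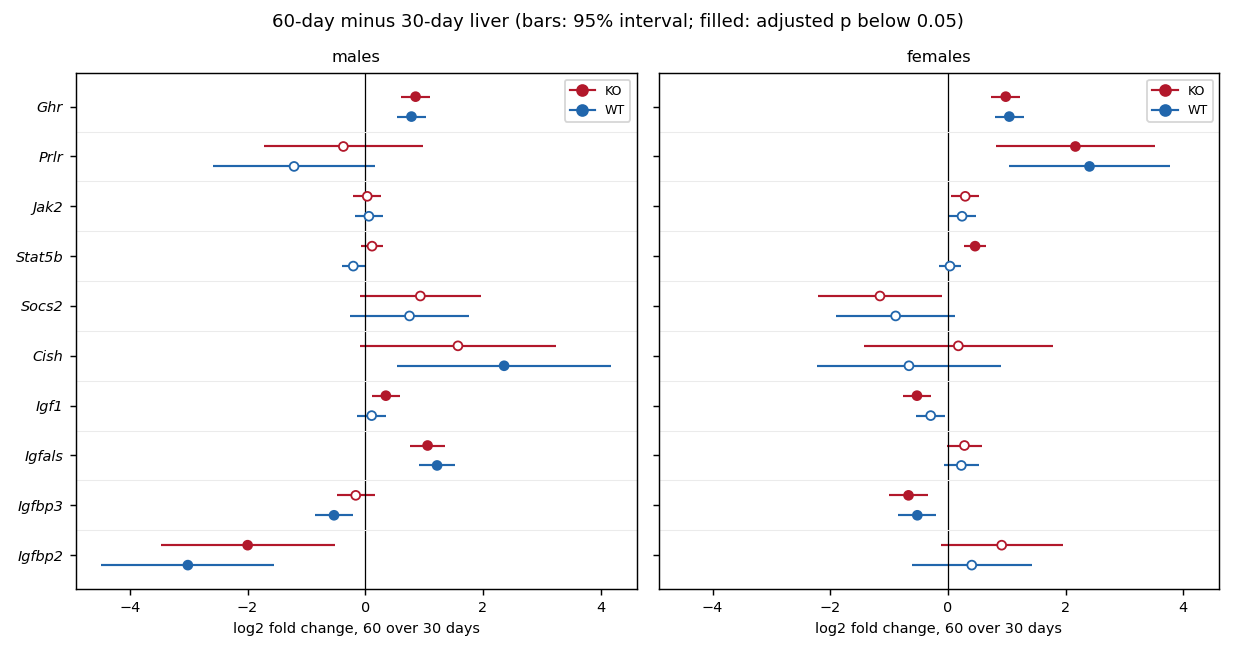
Log2 fold change of 60-day over 30-day liver (horizontal axis) for the 10 members in males (left panel) and females (right panel), red for KO and blue for WT, with bars for 95% intervals and filled points for adjusted p below 0.05. Ghr is filled in all 4 comparisons, Igfals and Igfbp2 in males of both genotypes, and Prlr in females of both.

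The age effects of several members differed between the sexes when that difference was itself tested, in contrasts added after the values had been seen. Male minus female age effects were called for 2 members in KO livers, both positive, beside 4.69% of all genes (2.79% positive). In WT livers 1 was positive and 2 were negative, beside 9% of all genes (4.62% positive and 4.38% negative). Igf1 differed in KO livers by 0.88 ± 0.17 (adjusted p = 0.00166) and was at 0.40 ± 0.17 in WT livers (adjusted p = 0.137). Igfals differed in both, by 0.78 ± 0.20 in KO (adjusted p = 0.0212) and 0.99 ± 0.21 in WT livers (adjusted p = 0.00178). Its KO call was lost without replicate 2 of the 30-day KO males (adjusted p = 0.0535), replicate 1 of the 60-day KO females (0.059) or replicate 1 of the 60-day KO males (0.0618). Prlr and Igfbp2 differed in WT livers, by -3.62 ± 0.94 (adjusted p = 0.014) and -3.42 ± 0.88 (adjusted p = 0.013), and without replicate 3 of the 60-day WT males Prlr was at -4.57. The Igfbp2 call was lost with limma-voom (-3.31, adjusted p = 0.149). In KO livers Prlr and Igfbp2 were at -2.54 ± 0.92 (adjusted p = 0.127) and -2.91 ± 0.88 (adjusted p = 0.0548), with Igfbp2 called without replicate 4 of the 60-day KO females (adjusted p = 0.0496). Igfbp2 in KO livers was also called by DESeq2 (-2.94, adjusted p = 0.00498) and by limma on the deposited log2 values (-2.98, adjusted p = 0.0316). Prlr in KO livers was called with limma-voom (-3.42, adjusted p = 0.024). Whether these values differ between the genotypes was not tested. Ghr, which rose in both sexes, was at -0.13 ± 0.17 in KO and -0.26 ± 0.17 in WT livers, and the WT value was called without replicate 4 of the 30-day WT females (-0.47, adjusted p = 0.024).

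Loss of CBG left the axis without a called change at either age or in either sex. None of the 10 members was called in KO against WT livers in 60-day males, where 0.209% of all genes were called, in 60-day females (6.77%), in 30-day males (0.0545%) or in 30-day females (0.3%). Without the photoreceptor library 399 genes were called in 60-day females, against 745 with it. Of the 40 KO against WT tests of members, 6 had an unadjusted p below 0.05. Of the 11002 genes 1188 did in 60-day males, 2286 in 60-day females, 653 in 30-day males and 1175 in 30-day females. DESeq2 called 1 of the 40 member tests, Socs2 in 60-day females. The intervals were narrow for the steady genes: Ghr stood at 0.09 ± 0.12 in 60-day males (95% interval -0.16 to 0.33), 0.11 ± 0.12 in 60-day females (-0.14 to 0.35), 0.02 ± 0.12 in 30-day males (-0.23 to 0.26) and 0.17 ± 0.12 in 30-day females (-0.08 to 0.41). Jak2 lay between 0.04 and 0.11 and its intervals between -0.20 and 0.35. For Prlr, Cish and Igfbp2 the intervals were wide, reaching from -0.57 to 2.20 for Prlr in 60-day males and from -2.68 to 0.47 for Cish in 30-day females. The median log2 fold change of the 10 members was 0.25 in 60-day males, 0.01 in 60-day females, -0.003 in 30-day males and -0.06 in 30-day females, and that of all genes lay between 0.0008 and 0.01.

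Socs2 had the largest KO values in females. It had 10.9, 29.02, 26.7 and 21.3 CPM in 60-day KO females, against 27.6, 25.8, 131 and 62.3 CPM in 60-day WT females. In 30-day females it had 52.1, 74.3, 32.1 and 38.4 CPM in KO livers, against 136, 126, 74.7 and 121 CPM in WT livers. At 60 days 2 KO values lay among the WT values, and at 30 days all 4 KO animals were below all 4 WT animals, by a narrow margin. The log2 fold changes were -1.48 ± 0.51 at 60 days (adjusted p = 0.0844) and -1.22 ± 0.49 at 30 days (adjusted p = 0.359). The 60-day value was called without replicate 1 of the WT females (-1.73, adjusted p = 0.0405) and by DESeq2 (adjusted p = 0.0366), and without replicate 3 of the WT females, the highest library, it was -0.80 (adjusted p = 0.396). In males Socs2 had 34.0, 84.1, 32.2 and 123 CPM in 60-day KO livers and 95.1, 80.8, 86.6 and 116 CPM in 60-day WT livers, at -0.47 ± 0.49, and at 30 days 19.3, 64.3, 42.7 and 16.0 CPM in KO and 51.2, 49.3, 81.6 and 42.1 CPM in WT livers, at -0.65 ± 0.49. Neither was called.

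Because Socs2 was lower on average in KO livers in all 4 comparisons, the mean KO effect over both sexes and ages was added as a description. Socs2 was at -0.96 ± 0.25 in it, or 1.94 times lower in KO livers, and between -1.07 and -0.79 with each library left out in turn. Its adjusted p of 0.034, the 1 call among the members beside 3.12% of all genes (1.75% lower), restates the values that prompted the contrast and is no separate support, and 9 of the 32 fits that left out 1 library lost it. Those were without replicate 1 or 3 of the 60-day KO males, replicate 1 of the 60-day KO females, replicate 3 of the 60-day WT females, replicate 1 or 4 of the 30-day KO males, replicate 3 of the 30-day WT males, replicate 4 of the 30-day KO females or replicate 2 of the 30-day WT females. Cish, the other inhibitor, was at 0.07 ± 0.40 in the same contrast (95% interval -0.75 to 0.90).

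Stat5b had 35.2, 38.6, 40.7 and 35.8 CPM in 30-day KO females, against 44.3, 49.6, 48.6 and 42.8 CPM in 30-day WT females, at -0.30 ± 0.09 (adjusted p = 0.197). The KO libraries all lay below the WT libraries, as did those of Socs2, so that 2 of the 10 members did not overlap in 30-day females, against 7.62% of all genes. Genotype largely coincides in 30-day females with the number after the hyphen in the titles, so their parts in these values cannot be well told apart. A fit to the 30-day libraries called 50 genes between KO and WT females, and 8 with that number as a covariate. In the other 3 KO comparisons no member was without overlap, against 4.89% of all genes in 60-day males, 8.43% in 60-day females and 6.44% in 30-day males. Stat5b was at 0.24 ± 0.10 in 60-day males (adjusted p = 0.339), 0.12 ± 0.09 in 60-day females and -0.08 ± 0.09 in 30-day males. Igfbp3 was at 0.35 ± 0.16 in 60-day males (adjusted p = 0.412) and -0.32 ± 0.16 in 60-day females (adjusted p = 0.259), where it was called without replicate 2 of the KO females (-0.53, adjusted p = 0.03). Igf1 was at 0.25 ± 0.12 in 60-day males (adjusted p = 0.435), and Igfals was at 0.27 ± 0.14 in 60-day females (adjusted p = 0.299).

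**Figure D4:**
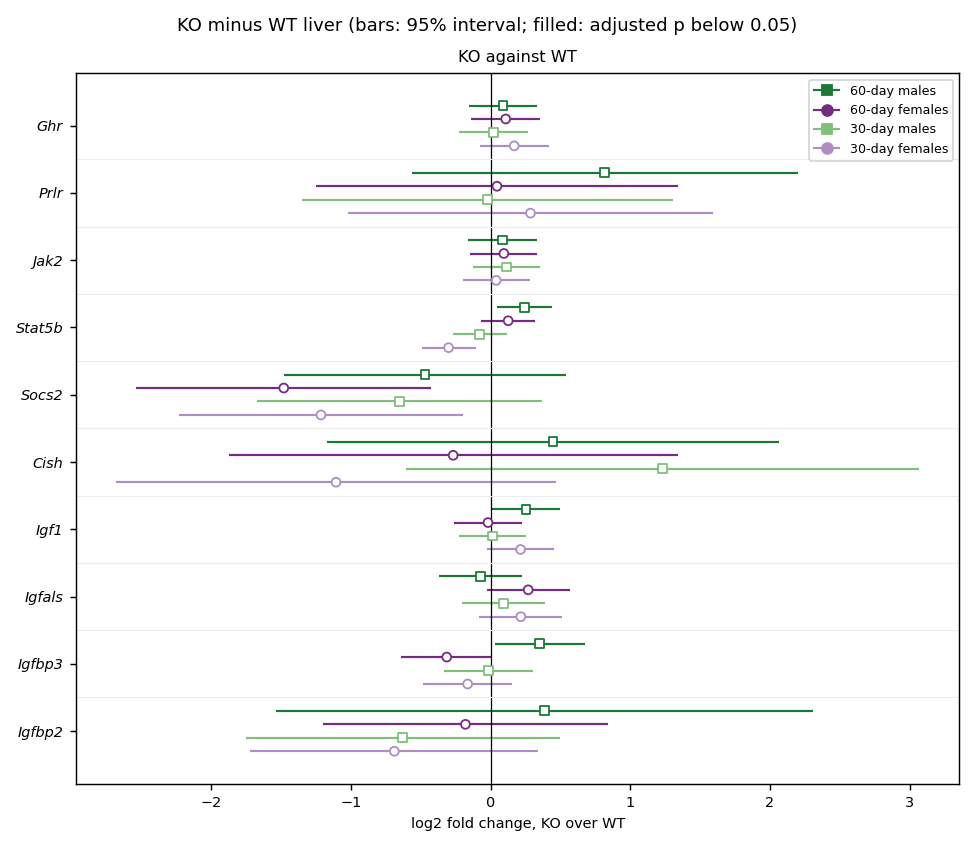
Log2 fold change of KO over WT liver (horizontal axis) for the 10 members in 60-day males, 60-day females, 30-day males and 30-day females, with bars for 95% intervals. All points are open, since no member had an adjusted p below 0.05, and the 4 Socs2 points lie between -1.48 and -0.47.

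Without the 60-day KO female library that held photoreceptor transcripts, 3 calls were lost. They were Socs2 between the sexes in 60-day KO livers (1.41, adjusted p = 0.0946), Igfals for sex by age in KO livers (0.68, adjusted p = 0.059) and Socs2 in the mean KO effect (-0.90, adjusted p = 0.0553). The other called values that use this library kept their calls. Between the sexes in 60-day KO livers they were -0.55 for Ghr, -4.21 for Prlr, 0.86 for Igf1, 0.59 for Igfbp3 and -4.45 for Igfbp2. For age in KO females they were 0.96 for Ghr, 2.02 for Prlr, 0.49 for Stat5b, -0.51 for Igf1 and -0.64 for Igfbp3, and Igf1 for sex by age was at 0.86.

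Further genes of growth hormone and prolactin signalling were described from a list of 29, of which 22 were tested. In the 4 KO comparisons 0 of 22 were called. Of all genes 0.209% were called in 60-day males, 6.77% in 60-day females, 0.0545% in 30-day males and 0.3% in 30-day females. Between the sexes 3 were lower in 60-day KO males and 4 in 60-day WT males, none higher, where 8.89% and 12.7% of all genes were lower. Without the photoreceptor library 2 of 22 were lower in 60-day KO males. Stat3, a second STAT downstream of Jak2, was lower in males of both genotypes (-0.37 ± 0.11 in KO and -0.53 ± 0.11 in WT livers), and its KO call was lost without replicate 2 of the KO females or replicate 1, 3 or 4 of the KO males (adjusted p up to 0.107). Socs3, an inhibitor of cytokine receptors, was lower in WT males (2.65 ± 0.495 CPM in males and 6.80 ± 2.22 CPM in females, SD, n = 4; -1.37 ± 0.28, adjusted p = 0.00041), and Irs1, an adaptor of insulin and IGF receptors, by -0.75 ± 0.13. Grb10, an adaptor that restrains insulin and IGF receptor signalling, was lower in KO males (-0.79 ± 0.22) and not called in WT males (-0.24 ± 0.23). Without replicate 1 of the KO females, the photoreceptor library, Grb10 was at -0.51 and not called (adjusted p = 0.1), nor was it without replicate 4 of the KO males (adjusted p = 0.0563).

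With age 4 of these 22 rose and 1 fell in KO females, 5 rose and 1 fell in WT females, 3 rose and 2 fell in KO males, and 4 rose and 2 fell in WT males, and without the photoreceptor library 6 rose and 1 fell in KO females. Of all genes 22.7% changed with age in KO females, 33.1% in WT females, 28.4% in KO males and 31.5% in WT males. Grb10 fell in all 4 groups, with log2 fold changes between -1.03 ± 0.19 in KO females and -1.76 ± 0.21 in KO males. Socs3 rose in all 4, from 0.86 ± 0.30 in WT males to 1.54 ± 0.28 in WT females. Its WT male call was lost without replicate 1, 2 or 4 of either age (adjusted p up to 0.0736), and its KO female call without replicate 2 of the 30-day or 3 of the 60-day group (adjusted p = 0.0582 and 0.057). Stat5a, the close relative of Stat5b, rose in KO females (0.74 ± 0.12), WT females (0.50 ± 0.12) and KO males (0.52 ± 0.12) and was at 0.20 ± 0.12 in WT males. The list's median log2 fold change with age lay between 0.03 and 0.10, against -0.01 to 0.01 for all genes.

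Of 19 other genes of the IGF system 13 were tested. Here 1 was called in KO against WT 60-day females, where 6.77% of all genes were, and 1 in 30-day females (0.3%). Igf2, the fetal growth factor, was low in every liver and higher in 60-day KO females, at 2.22 ± 0.326 CPM against 1.12 ± 0.268 CPM in WT females (0.99 ± 0.27, adjusted p = 0.0237). That call was lost without replicate 1 of the KO females, the photoreceptor library (0.95, adjusted p = 0.0589). It was also lost when KO female replicate 2 (0.0558), WT female replicate 2 (0.0941) or WT female replicate 4 (0.0696) was left out. Igfbp6, a carrier that prefers Igf2, was lower in 30-day KO females, at 1.85 ± 1.08 CPM against 8.90 ± 4.45 CPM in WT females (-2.27 ± 0.51, adjusted p = 0.0462). The call remained in 2 of 8 fits that left out 1 library, those without replicate 3 or 4 of the WT females, and the adjusted p reached 0.205 in the others. In the same 30-day females 1 of 9 tested stellate and fibroblast markers was called lower. The summed level of all 10 listed markers was 905 to 1048 CPM in KO and 1113 to 1494 CPM in WT livers. The part of these markers in the Igfbp6 result was not tested.

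Igfbp4, an inhibitory carrier, was lower in 60-day males, by -0.24 ± 0.07 in KO livers (adjusted p = 0.0198) and -0.38 ± 0.07 in WT livers (adjusted p = 0.000195). The KO call was lost without replicate 1 or 2 of the KO females (adjusted p = 0.0518 and 0.0787) or replicate 2 or 4 of the KO males (0.0528 and 0.0554). With age 1 of the 13 IGF genes rose and 3 fell in KO females, and 2 rose and 7 fell in WT females. In KO males 1 rose and 5 fell, and in WT males 0 rose and 5 fell. Of all genes 12.1%, 17.1%, 14.5% and 15.8% fell in these groups, in that order, and 10.6%, 16%, 14% and 15.7% rose. Igfbp7 fell in all 4 groups, with log2 fold changes between -0.64 ± 0.12 in KO males and -0.87 ± 0.12 in WT females. Igf2bp2, an RNA-binding protein of Igf2 transcripts, fell in all 4 as well, at -1.30 ± 0.34 in WT males to -2.38 ± 0.35 in WT females. Igf2r, the receptor that clears Igf2, fell in KO males (-0.58 ± 0.10), WT males (-0.51 ± 0.10) and WT females (-0.32 ± 0.10, adjusted p = 0.0107) and was at -0.16 ± 0.10 in KO females. The list's median was between -0.70 and -0.16, against -0.01 to 0.01 for all genes.

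Liver transcription factors known from rat or mouse work to respond to the growth hormone pattern formed a list of 13, of which 12 were tested. None was called in a KO comparison, where between 0.0545% (30-day males) and 6.77% (60-day females) of all genes were. Trim24, a cofactor that in mice is female-biased, was lower in 60-day males, at 5.45 ± 4.00 CPM in KO males against 104 ± 15.9 CPM in KO females (-4.23 ± 0.42), and at 2.88 ± 0.694 CPM in WT males against 110 ± 3.65 CPM in WT females (-5.25 ± 0.45). Cux2, a repressor that in mice is specific to female liver, averaged 10.0 ± 11.7 CPM in 60-day KO males against 142 ± 20.6 CPM in KO females (-3.79 ± 0.51, or -4.98 without replicate 3 of the KO males), and 1.55 ± 0.532 CPM in WT males against 141 ± 21.2 CPM in WT females (-6.51 ± 0.63). Bcl6, a repressor that competes with STAT5 for its sites and that in mice is male-biased, was higher in 60-day KO males (4.00 ± 0.70, adjusted p = 0.000147) and not called in 60-day WT males (1.88 ± 0.75, adjusted p = 0.0663). At 30 days it was the reverse: Bcl6 was called higher in WT males (3.69, kept in all 8 fits that left out 1 library) and not called in KO males. None of the 12 was called for sex by genotype at either age, where 0.136% of all genes were at 60 days and 0% at 30 days. Set against females of the same age, 60-day KO males had 2 of the 12 higher and 3 lower, and 60-day WT males had 0 higher and 4 lower, where 18.5% and 26.4% of all genes were called in either direction. Without the photoreceptor library the KO counts were 1 and 3, and Trim24 (-4.22), Cux2 (-3.77) and Bcl6 (4.35, adjusted p = 0.00046) kept their KO calls.

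The 20 growth hormone-responsive, sex-dependent liver genes were all tested, and they were chosen because they are known to differ by sex. Of them 13 were higher and 6 lower in 60-day KO males, and 12 higher and 6 lower in 60-day WT males, beside the same shares of all genes, and without the photoreceptor library 13 were higher and 5 lower in KO males. Between 30-day males and females 8 were higher and 4 lower in KO livers, and 9 higher and 4 lower in WT livers, beside 2.24% and 2.07% of all genes. The list's median log2 fold change, male over female, was 2.55 in 60-day KO, 2.30 in 60-day WT, 1.29 in 30-day KO and 0.88 in 30-day WT livers. In KO against WT livers 3 were higher and 2 lower in 60-day females, beside 6.77% of all genes, and 0 in each of the other 3 comparisons. Without the photoreceptor library 3 were higher and 1 lower. Those that changed in 60-day KO females included the monooxygenase Cyp3a9 (-2.29 ± 0.30, adjusted p = 3.95e-05) and the sulfotransferase Sult2a2 (5.96 ± 1.2, adjusted p = 0.00381), which without that library were at -2.57 and 5.96 and still called.

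For each member the 3 tested genes with the most similar levels were found by the Pearson correlation of log2 CPM over the 32 libraries, which share their sex and age groups, so the correlation of deviations from the group means is given after it. Both are descriptions. Prlr was most like Ppp2r1b (r = 0.96 and 0.84) and Pla2g16 (0.95 and 0.91), so that these tracked it also within groups. Cish was most like Foxa2 (0.87 and 0.87), Onecut1 (0.80 and 0.77) and Dusp6 (0.77 and 0.71). Igfbp3 was most like Mmp2 (0.85 and 0.81), Smoc2 (0.84 and 0.74) and Prelp (0.84 and 0.65), which encode matrix proteins or a matrix protease. Ghr was most like Hal (0.96 and 0.46), Igfals most like Hpx (0.92 and 0.66), Igf1 most like Gm2a (0.87 and 0.59) and Socs2 most like Ammecr1l (0.79 and 0.87). Igfbp2 was most like Disp1 (0.90 and 0.25) and also like Cyp2c12 (0.90 and 0.003), a female-specific monooxygenase, with which it shared the sex difference and nothing within groups. Jak2 was most like Myo9a (0.83 and 0.72), and Stat5b had the weakest partner, Kank1 (0.73 and 0.51).

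The Cish pattern could be followed library by library in 60-day males. Cish was at 2.13, 42.1, 1.26 and 61.1 CPM in 60-day KO males and at 7.43, 19.1, 9.98 and 42.3 CPM in 60-day WT males. Foxa2, a forkhead factor of hepatocytes, was at 26.2, 83.7, 25.9 and 70.01 CPM in the same KO males and 36.4, 49.4, 36.4 and 75.0 CPM in the same WT males. In both genotypes the 2 animals with more Cish had more Foxa2, and the same held for Socs2, at 34.0, 84.1, 32.2 and 123 CPM, in the KO males. In the WT males Socs2 was at 95.1, 80.8, 86.6 and 116 CPM, and replicate 2, with the second-highest Cish, had the lowest Socs2. Bcl6 ran the other way in the KO males, at 82.9, 13.5, 79.8 and 11.6 CPM, high in the 2 animals whose Cish was near 1 or 2 CPM. It did not do so in the 60-day WT males, at 9.22, 11.1, 4.89 and 12.0 CPM. There the 2 animals with more Cish also had the most Bcl6. In 30-day WT males replicate 4 had the lowest Cish, 1.31 CPM, and the highest Bcl6, 90.8 CPM, against 12.4 to 23.0 CPM in the other 3.

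**Figure D5:**
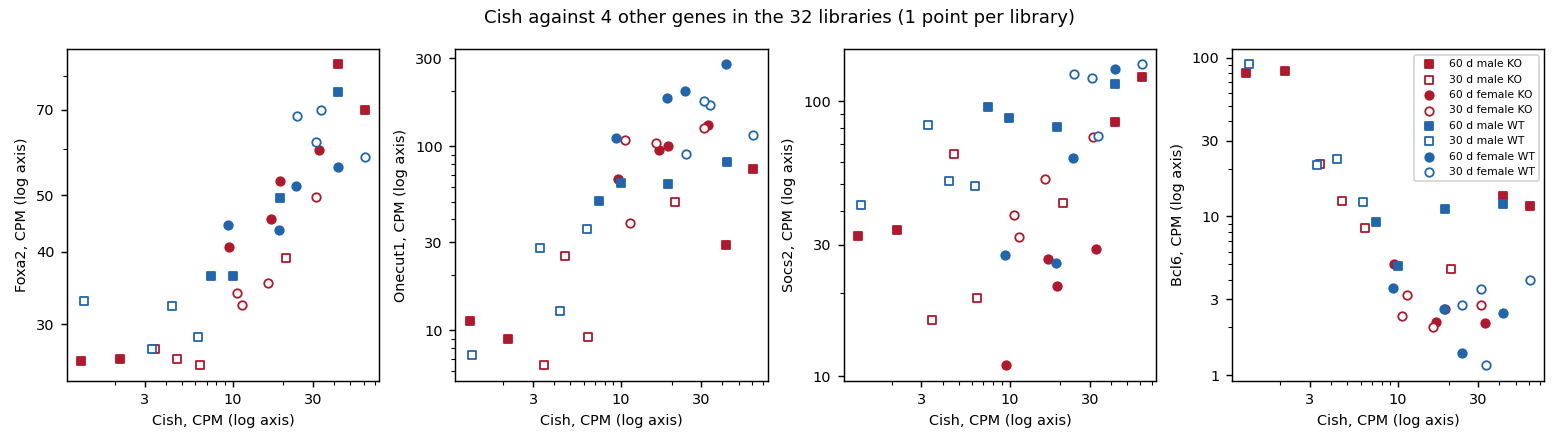
Level of Foxa2, Onecut1, Socs2 and Bcl6 (vertical log axes, CPM) against that of Cish (horizontal log axis, CPM), with 1 point per library, red for KO and blue for WT, squares for males, circles for females, filled for 60 and open for 30 days. Foxa2 and Onecut1 are higher where Cish is higher, and the 3 libraries with Bcl6 near 80 to 91 CPM are the 3 with Cish between 1.26 and 2.13 CPM.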

How the data were processed

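Liver RNA was extracted with Trizol and made into stranded poly(A) libraries (NEBNext Ultra II), per the labels. The deposited table of read counts per gene was made by the authors; the build Rnor_5.0 and the tools limma, STAR and Cufflinks are named, with no roles, per the submitters' processing notes, and for the counter, its strand setting, the annotation and all versions, the sources used here give nothing. The deposited log2 values, as the authors' second table, matched log2 counts per library size recomputed from those counts for 11344 genes. Rows naming no gene took 18.05% to 21.18% of reads as no feature and 0.262% to 0.648% as ambiguous and were left out.

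The 32 libraries were fitted together as 8 group means with edgeR 4.0.16 in R 4.3.3: TMM scaling, filterByExpr with a minimum count of 10, and the robust quasi-likelihood test with Benjamini-Hochberg adjustment over 11002 genes, called below 0.05. Every adjusted p is from that test unless another tool is named, and each SE is the log2 fold change over the square root of F. Alternatives were DESeq2 1.42.0, limma 3.58.1 on the deposited values, limma-voom, other scalings, no filter, fits by age, a title-number covariate and each library left out. The procedure was tested on simulated counts.

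The members and lists were chosen with earlier results of these data known. Beyond the 10 members, each list could contribute its 4 called genes lowest in adjusted p per contrast, with their values also where they were not called, and the 3 genes most correlated with each member. Bcl6 and Foxa2 levels by library were chosen for description after their values were seen. Replicate numbers follow accession order and pair nothing. The labels do not say that libraries came from separate animals, so p-values measure the spread between these libraries. Intervals come from the spread between libraries. Member counts ran from 11 reads upward. Promoters are from RefSeq, GRCr8, matched by symbol.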

Additional observations from a re-analysis of the deposited data

Results flagged for a closer look

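Of 80 groups of 4 libraries (10 members in 8 groups), 5 had 1 library set far from the other 3, where chance alone gives about 1 in 20. Prlr was highest in replicate 4 of the 30-day WT females, at 222 CPM. Jak2 was lowest in replicate 3 of the 60-day WT males, at 12.8 CPM. Stat5b was highest in replicate 3 of the 60-day KO females, at 58.6 CPM. Cish was highest in replicate 3 of the 30-day KO males, at 20.8 CPM, and Igfbp2 was lowest in replicate 2 of the 60-day WT females, at 12.4 CPM.

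The age effect in males minus that in females differed from 0 in edgeR's quasi-likelihood test for 5 results. In KO livers this was 0.88 for Igf1 and 0.78 for Igfals. In WT livers it was 0.99 for Igfals, -3.62 for Prlr and -3.42 for Igfbp2.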

How the results depend on the processing

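Of 190 member results 37 were called, of which 26 kept their call with each library left out in turn, 28 under every other setting tried and 24 under both; no called result changed sign. DESeq2 called 1 member in KO against WT 60-day females, 1 for age by genotype in females and 4 for sex by age in KO livers, where edgeR called 0, 0 and 2. Between the sexes at 30 days the count of 1 in KO livers became 0 with upper-quartile scaling, no filter, limma on the deposited log2 values or the title number as a covariate. In WT livers the 1 became 0 with no filter, the deposited values or limma-voom, and 2 in the fit to that age or with the title number. With the deposited values 5 members were called for age in WT females, against 3. Leaving out 1 library gave 0 to 1 in KO against WT 60-day females, 0 between the sexes at 30 days in both genotypes, 2 to 5 for age in WT females, 2 to 4 for age in KO males, 0 to 1 for age by genotype in females, 1 to 3 for sex by age in KO livers and 0 to 1 for the mean KO effect. For age in males, limma-voom ended the Igfbp2 calls in KO (adjusted p = 0.279) and WT livers (0.102), and the deposited values ended Igf1 in KO males (0.301). The causes were not tested.

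Over all genes, KO against WT calls by edgeR and DESeq2 were 745 and 928 in 60-day females, 23 and 65 in 60-day males, 33 and 92 in 30-day females and 6 and 26 in 30-day males; the fit by age gave 277, 4, 50 and 16, and in 30-day females the title number gave 8. No paired analysis was possible because replicate numbers follow accession order. Low counts limit Igfbp2, Prlr and Cish in males most.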
